A study of Mus musculus with 12 samples.

Results

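The PI3K, AKT and mTOR signaling genes described here were 9 genes, chosen by symbol from a deposited table of 55228 genes: Pik3ca, Pik3cd, Pik3r1, Pik3ip1, Akt1, Mtor, Rptor, Tsc1 and Tsc2. RNA was sequenced from 12 libraries of mouse regulatory T cells (Tregs), the CD4+ cells that restrain immune responses under the transcription factor Foxp3, with 3 libraries in each of 4 groups. Lymph node cells of 16 NOD.Foxp3-GFP mice, a diabetes-prone strain with a green reporter of Foxp3, were pooled, enriched for CD4+ cells and divided into 3 parts, from which GFP+CD25+ Tregs were sorted and activated separately. All groups carried a retrovirus that expresses the surface reporter Thy1.1, were transduced on day 2, had IL-2 in the culture until day 4, were cultured for 5 further days and were sorted as Thy1.1+ cells on day 9. EV no IL-2 Tregs carried the empty vector (EV) and were washed free of IL-2 on day 4. EV+IL-2 Tregs came from the same transduced cultures and stayed in medium with IL-2. 1G12t and 3A10t Tregs were washed like EV no IL-2 Tregs but carried a tether, a fusion of an orthogonal IL-2 (1G12 or 3A10) with the IL-2 receptor β chain that was mutated to bind it. The 3 replicates of each group thus came from separate sorts and cultures of 1 pool of mice, and p-values measure the spread between these cultures, not between animals. The age of the mice is not stated in the labels.

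Phosphoinositide 3-kinase (PI3K) is recruited to activated receptors, among them the T cell receptor and the IL-2 receptor, and makes the membrane lipid that brings the kinase AKT to the membrane. AKT switches off the TSC complex, a brake on the small GTPase RHEB, and thereby lets the kinase mTOR in its complex mTORC1 drive growth and metabolism. AKT also keeps the transcription factor FOXO1 out of the nucleus, where it maintains genes of resting T cells. Tregs are known to hold this pathway lower than conventional T cells, yet to need some mTORC1 activity for their function. Most control of these proteins is by phosphorylation and lipid binding, which RNA does not record.

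Values are transcripts per 1000000 (TPM), a level per transcript length, divided by a factor per library that lay between 0.854 and 1.09 (scaled TPM). Since TPM hold no read numbers, sequencing depth is unknown. From 30393 to 43285 genes had a TPM above 0 in a library. The 9 genes were all among the 15043 genes whose TPM averaged 1 or more over all libraries, which were tested together with limma on log2(scaled TPM + 1), all libraries in the fit. Fold changes are on that scale, which understates the change of low genes, and are given with their 95% interval. Foxp3 was at 369 to 463 TPM in the 3A10t libraries, below every library of the other groups, which ran from 484 to 510. The 6 summed Treg and CD4 T cell markers were at 1600 to 1930 TPM for 3A10t, 1840 to 1940 in EV Tregs without IL-2, 1910 to 1980 for 1G12t and 2220 to 2240 in EV+IL-2 Tregs. Within that sum, Il2ra was at 654 to 732 in EV+IL-2 and 400 to 434 in EV no IL-2, and Ikzf2 and Cd3e were also higher. Cd4 (233 to 260 against 270 to 323) and Ctla4 (166 to 176 against 185 to 209) were lower in EV+IL-2, and Foxp3 overlapped. Of the myeloid markers Lyz2, S100a8, S100a9 and Csf1r, none passed 1.73 TPM in any library, whereas Cst3, which is not confined to myeloid cells, was at 440.0 to 762. The summed B cell markers (Cd79a, Cd79b, Ms4a1) were at 8.34 to 9.95 TPM in EV Tregs without IL-2, 10.2 to 12.7 with IL-2, 8.69 to 12.9 for 1G12t and 11.3 to 16.0 for 3A10t, and the CD8 markers (Cd8a, Cd8b1) at 3.45 to 6.51 in all. The part of these marker differences in the results was not tested.

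Among the libraries, 1G12t replicate 3 stood apart for the 9 genes. It had the highest of the 12 values for 5 of them (Pik3cd, Pik3r1, Mtor, Rptor and Tsc2) and the lowest for Pik3ip1. In 3A10t Tregs, replicate 1 differed from replicates 2 and 3 for Pik3cd, and results that turn on either library are given with and without it. Both libraries were singled out by their values for these same genes, so a gene that passes without one of them gains no separate support. The 3A10t libraries also carried a trend with transcript length over all genes, which is described with the 3A10t results.

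The levels of the 9 genes spanned a wide range that was kept in every group. Pik3cd, Pik3ip1 and Pik3r1 had means of 143, 120 and 87.0 scaled TPM over the 12 libraries, whereas Tsc1 and Tsc2 were at 27.1 and 21.9 and Akt1 at 14.1. Rptor, Mtor and Pik3ca were the lowest, at 8.96, 8.89 and 8.32. Between groups the differences were small beside this range: the highest group mean was 1.09 times the lowest for Mtor and at most 1.69 times, for Pik3ca.

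**Figure D1:**
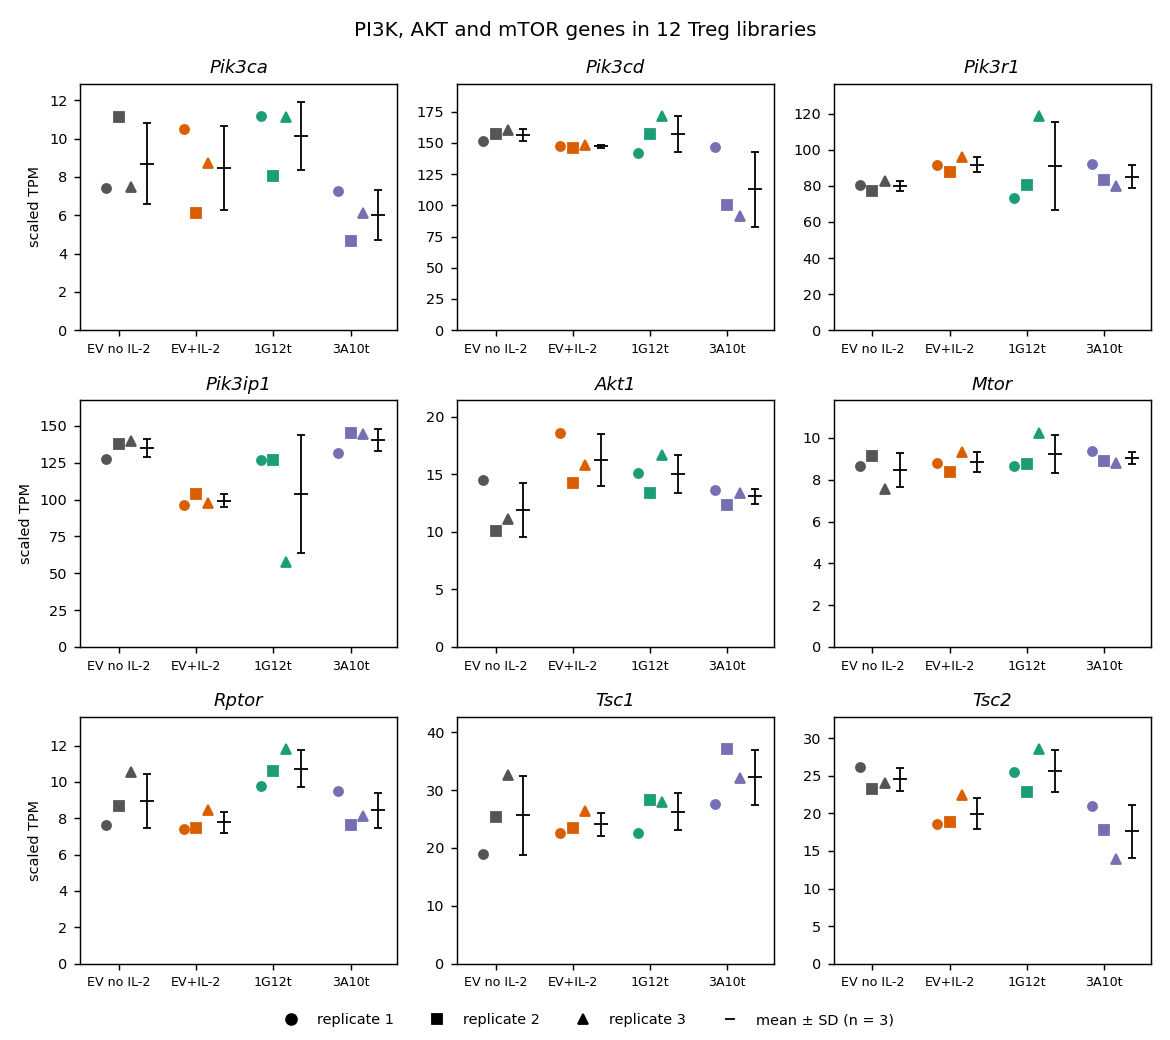
Scaled TPM (vertical axis, linear, from 0) of each of the 9 genes in the 4 groups, 1 symbol per library with its replicate number by shape, and bars for the mean ± SD of 3 libraries. Pik3ip1 was lower in all 3 EV+IL-2 libraries than in any EV no IL-2 library, Pik3cd and Tsc2 were lowest in 3A10t replicates 2 and 3, and 1G12t replicate 3 stands away from its group for Pik3r1 and Pik3ip1.

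Without the replicate number as a block, none of the 9 genes passed an adjusted p (Benjamini-Hochberg, limma) of 0.05 in any of the 5 comparisons made. With the block, 1 of 9 passed in EV+IL-2 against EV no IL-2 (Akt1, adjusted p = 0.0263) and 1 of 9 in 3A10t against EV+IL-2 (Tsc1, adjusted p = 0.0464, limma). Of all 15043 genes tested, 1974 and 3718 passed with the block in the same comparisons. The counts that follow are without the block. In EV+IL-2 against EV no IL-2, which asks what IL-2 in the medium changed, 0 of 9 were called, beside 13.3% of all genes tested, and 1 had an unadjusted p under 0.05, beside 26.3%. In 3A10t against EV no IL-2 the count was 0 of 9 beside 2.05%, with 2 at an unadjusted p under 0.05 beside 26.0%. For 1G12t it was 0 of 9 beside 0.0199%, with 1 beside 7.04%. In 3A10t against 1G12t, which compares the tethers, it was 0 of 9 beside 4.27%, with 4 beside 29.7%, and in 3A10t against EV+IL-2 0 of 9 beside 23.4%, with 2 beside 37.1%. These comparisons share libraries with each other and are not independent. The study's own rule, an absolute log2 fold change over 0.25 with an unadjusted p below 0.01, was here applied to limma. By that rule 2 of 9 genes, Pik3cd and Tsc2, were lower in 3A10t than in EV no IL-2 Tregs, beside 6.67% of all genes lower and 9.5% in either direction. The same pair was lower in 3A10t than in 1G12t, beside 7.06% lower and 12.4% in either direction. None of the 9 met the rule in EV+IL-2 or 1G12t against EV no IL-2, beside 15.1% and 1.36%, or in 3A10t against EV+IL-2, beside 22.1%.

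The libraries of a comparison separated completely for 1 to 4 of the 9 genes. Groups did not overlap for 4 of 9 in EV+IL-2 against EV no IL-2, beside 39.6% of all genes, for 3 beside 25.4% in 3A10t and for 1 beside 16.5% in 1G12t against EV no IL-2. They did not overlap for 4 beside 26.2% in 3A10t against 1G12t and for 3 beside 36.9% in 3A10t against EV+IL-2. In these bulk libraries, fewer cells of a type and less RNA per cell cannot be told apart.

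**Figure D2:**
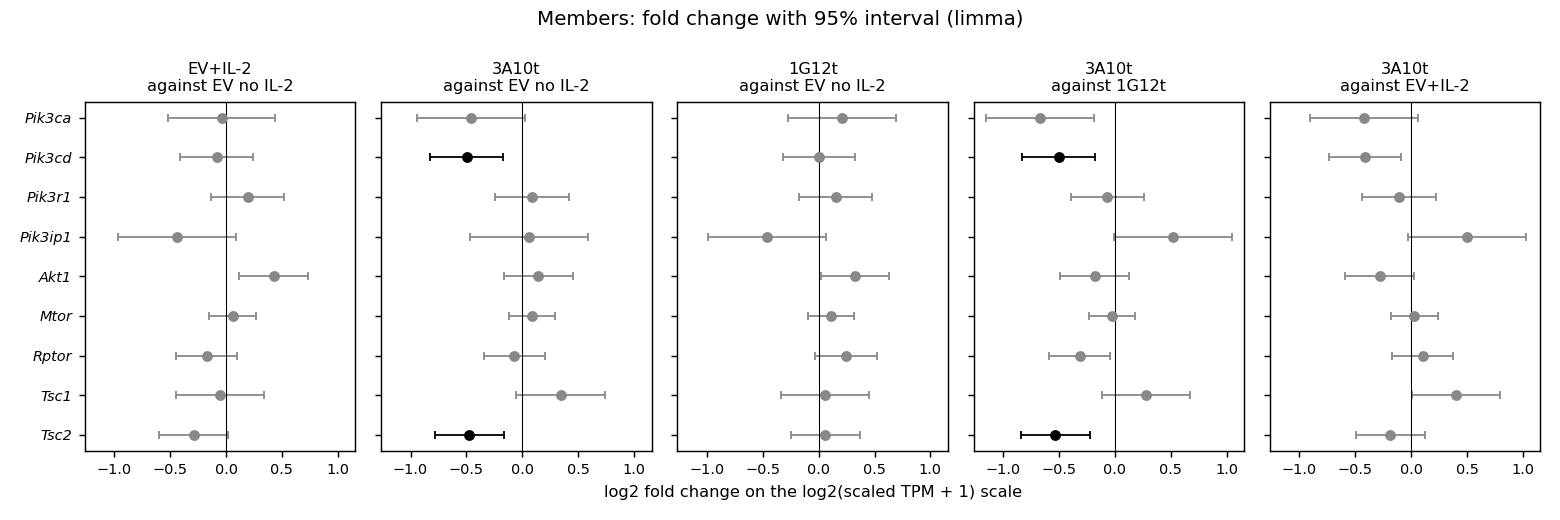
Log2 fold change (horizontal axis, log2(scaled TPM + 1) scale) of each of the 9 genes in the 5 comparisons, with the 95% interval from limma, and in black where the unadjusted p was under 0.01. Black points are Pik3cd and Tsc2 in 3A10t against EV no IL-2 and against 1G12t, all below 0.

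The catalytic subunits of PI3K were represented mainly by Pik3cd, which encodes p110δ, the form typical of leukocytes. Pik3cd made up 86.4% to 91.3% of the summed TPM of the 4 class I catalytic genes (Pik3ca, Pik3cb, Pik3cd, Pik3cg) in a library. Pik3ca, which encodes the broadly expressed p110α, made up 3.77% to 6.89%.

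Without IL-2, the EV libraries (replicates 1, 2 and 3) held Pik3cd at 151, 157 and 160.4 scaled TPM, and with IL-2 at 147, 146 and 148. The 1G12t values were 142, 158 and 172, and those of 3A10t 147, 100.4 and 91.1. The first 3 groups thus lay close together, and 2 of the 3 3A10t libraries lay far below all others, with 3A10t replicate 1 within the range of EV+IL-2. In order of their means the groups ran 1G12t, EV no IL-2, EV+IL-2 and 3A10t, and only EV no IL-2 and EV+IL-2 did not overlap as neighbors. Against EV no IL-2, the log2 fold change in 3A10t was −0.50 (−0.82 to −0.17, adjusted p = 0.091 by limma), a fold of 0.708. Against 1G12t it was −0.50 (−0.83 to −0.18, adjusted p = 0.066), and against EV+IL-2 −0.41 (−0.74 to −0.088, adjusted p = 0.0656). Without 3A10t replicate 1 all 3 differences passed, at −0.70 (adjusted p = 0.000513), −0.71 (0.000702) and −0.62 (0.000604, limma in each). In the same fits, calls over all 15043 genes rose from 308 to 3469, from 642 to 4105 and from 3513 to 5145. Over all left-out libraries the 3 differences ranged from −0.702 to −0.361, from −0.706 to −0.365 and from −0.617 to −0.276. The interval of EV+IL-2 against EV no IL-2, −0.41 to 0.24, and that of 1G12t against EV no IL-2, −0.32 to 0.33, excluded changes beyond about those bounds at this level of confidence.

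Pik3ca was low and variable. EV libraries had 7.42, 11.1 and 7.50 scaled TPM without IL-2 and 10.5, 6.13 and 8.73 with it. The 1G12t values were 11.2, 8.06 and 11.1, and the 3A10t values 7.26, 4.67 and 6.09. All 3 3A10t libraries lay below every EV no IL-2 and 1G12t library but overlapped EV+IL-2. The log2 fold change in 3A10t was −0.46 (−0.94 to 0.020, adjusted p = 0.206) against EV no IL-2 and −0.67 (−1.15 to −0.19, adjusted p = 0.0814, limma) against 1G12t. Without 3A10t replicate 1 the latter passed, at −0.80 (adjusted p = 0.038, limma), and the former was −0.288 when EV no IL-2 replicate 2 was left out. Of all 15043 genes, 4105 passed against 1G12t without 3A10t replicate 1, beside 642 with all libraries. The ratio of Pik3cd to Pik3ca within a library had geometric means of 18.3 in EV Tregs without IL-2, 17.8 with IL-2, 15.6 for 1G12t and 18.7 for 3A10t, and its groups overlapped in every comparison.

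Pik3r1 encodes p85α, the main regulatory subunit, which stabilizes p110 and docks it to phosphorylated receptors. Its levels in EV Tregs were 80.3, 77.1 and 82.6 scaled TPM without IL-2 and 91.5, 87.6 and 96.2 with IL-2. They were 73.4, 80.7 and 119 for 1G12t, and 92.2, 83.3 and 79.7 for 3A10t. EV+IL-2 lay above EV no IL-2 in every library, by a small margin, whereas 1G12t replicate 3 was far above its group. EV+IL-2 differed from EV no IL-2 by a log2 fold change of 0.19 (−0.13 to 0.52, adjusted p = 0.481, limma). With only those 6 libraries in the fit, whose spread was smaller, the adjusted p was 0.0421. Of the summed TPM of the class IA regulatory genes, Pik3r1 made up 65.0% to 67.0% in EV Tregs without IL-2, 71.3% to 73.7% with IL-2, 61.9% to 75.9% for 1G12t and 67.0% to 73.1% for 3A10t. In order of means the groups ran EV+IL-2, 1G12t, 3A10t and EV no IL-2, with all neighbors overlapping.

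Pik3ip1 encodes a transmembrane protein that inhibits class I PI3K and is abundant in resting T cells. EV Tregs had 128, 137 and 139.8 scaled TPM without IL-2 and 96.3, 104 and 97.4 with IL-2. The 1G12t values were 127, 127 and 57.8, and those of 3A10t 132, 146 and 144. Pik3ip1 was thus lower in every EV+IL-2 library than in every EV no IL-2 and 3A10t library, and replicates 1 and 2 of 1G12t lay just under the lowest EV no IL-2 library. The log2 fold change of EV+IL-2 against EV no IL-2 was −0.44 (−0.97 to 0.087, adjusted p = 0.288, limma), a fold of 0.737. The interval was wide through 1G12t replicate 3: without that library Pik3ip1 passed with the same fold change (adjusted p = 0.00218), as it did with only the 6 libraries compared (adjusted p = 0.00537, limma in both). In 3A10t against EV+IL-2 the log2 fold change was 0.50 (−0.030 to 1.02, adjusted p = 0.157), and without 1G12t replicate 3 it was 0.50 with an adjusted p of 0.00105 (limma). Between 1G12t and EV no IL-2 it was −0.46 (−0.99 to 0.064, adjusted p = 0.724), and −0.090 without 1G12t replicate 3. The 3A10t and EV no IL-2 libraries overlapped (0.057, −0.47 to 0.58, adjusted p = 0.901; −0.092 for unscaled TPM and −0.00864 after quantile normalization).

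Set against Pik3cd, the main class I catalytic gene by TPM, Pik3ip1 had ratios of 0.845, 0.875 and 0.872 in EV Tregs without IL-2. With IL-2 they were 0.653, 0.712 and 0.657. The ratios were 0.891, 0.805 and 0.336 for 1G12t, and 0.899, 1.45 and 1.58 for 3A10t. All EV+IL-2 ratios lay below, and all 3A10t ratios above, those of EV no IL-2. With 3 libraries against 3 the smallest p that a two-sided exact permutation test allows is 0.1, and both differences reached it, as did the log2 difference of 0.92 between 3A10t and EV+IL-2. The ratio of Pik3r1 to the summed class IA catalytic genes ranged from 0.450 to 0.496 in EV Tregs without IL-2, from 0.564 to 0.601 with IL-2, from 0.468 to 0.6397 for 1G12t and from 0.588 to 0.810 for 3A10t. Since the smallest p possible is 0.1, no ratio could pass 0.05 in this design, whatever its values. Adjusted over the 30 ratio tests made, none fell below 0.25 (exact permutation test). No ratio was corrected for transcript length, with which fold changes in 3A10t moved, as described below. Genes about as long as Pik3ip1 and as Pik3cd had median log2 fold changes of 0.0218 and −0.167 in 3A10t against EV no IL-2. The part of length in these ratios was not tested.

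Akt1 encodes the broadly expressed AKT kinase, and was the only 1 of the 9 genes with an unadjusted p under 0.05 between EV+IL-2 and EV no IL-2. Its levels in EV Tregs were 14.5, 10.1 and 11.1 scaled TPM without IL-2 and 18.6, 14.2 and 15.8 with IL-2. They were 15.1, 13.4 and 16.7 for 1G12t, and 13.6, 12.4 and 13.4 for 3A10t. EV no IL-2 replicate 1 lay above the lowest EV+IL-2 library, and within each replicate number EV+IL-2 was the higher. The log2 fold change of EV+IL-2 was 0.43 (0.12 to 0.73, adjusted p = 0.07, limma), a fold of 1.34. With the replicate number as a block, which stands for the shared sort and culture, Akt1 passed at the same fold change (adjusted p = 0.0263, limma), and it passed without EV no IL-2 replicate 1 (0.57, adjusted p = 0.0226). In 1G12t it was 0.33 (0.019 to 0.63, adjusted p = 0.703) and in 3A10t 0.14 (−0.16 to 0.45, adjusted p = 0.515, limma). In order of means the groups ran EV+IL-2, 1G12t, 3A10t and EV no IL-2, with all neighbors overlapping.

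Akt1 was lower than Akt2 by TPM in each library. Akt2, which is best known from insulin signaling, had 92.3 ± 3.82 scaled TPM in EV Tregs without IL-2 and 77.9 ± 15.9 in 3A10t Tregs (SD, n = 3). The ratio of Akt1 to Akt2 had a geometric mean of 0.127 in EV Tregs without IL-2 and of 0.169, 0.17 and 0.17 in the EV+IL-2, 1G12t and 3A10t groups, with overlap in each comparison (exact permutation p = 0.2 for each of the 3 against EV no IL-2).

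Mtor, the kinase at the core of mTORC1 and mTORC2, had the steadiest level of the 9. The EV libraries were at 8.66, 9.15 and 7.58 scaled TPM without IL-2 and at 8.83, 8.36 and 9.34 with it. Values were 8.66, 8.75 and 10.3 for 1G12t, and 9.38, 8.91 and 8.82 for 3A10t. All groups overlapped. The log2 fold changes against EV no IL-2 were 0.059 in EV+IL-2 (−0.15 to 0.27, adjusted p = 0.776), 0.088 in 3A10t (−0.12 to 0.30, adjusted p = 0.557) and 0.11 in 1G12t (−0.096 to 0.32, adjusted p = 0.794, limma). Their signs depended on scaling or length correction in places, with values of −0.045 in 3A10t for TPM as deposited and −0.033 in 1G12t after length correction.

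Rptor encodes Raptor, the subunit that brings substrates to mTORC1. EV libraries had 7.62, 8.66 and 10.5 scaled TPM without IL-2 and 7.39, 7.46 and 8.44 with it. The 1G12t values were 9.79, 10.6 and 11.8, and the 3A10t values 9.51, 7.65 and 8.13. Every 1G12t library lay above every EV+IL-2 and 3A10t library, and the EV no IL-2 libraries, from 7.62 to 10.5, overlapped each of the other groups. Between 3A10t and 1G12t the log2 fold change was −0.32 (−0.59 to −0.042, adjusted p = 0.124), and −0.40 without 3A10t replicate 1 (adjusted p = 0.0493, limma). Without that library 4105 of all 15043 genes passed, beside 642 with it. After correction for transcript length, described with the trend over all genes, the log2 fold change of Rptor was −0.10 (adjusted p = 0.513, limma). Against EV no IL-2 it was −0.17 in EV+IL-2 (−0.45 to 0.10), −0.071 in 3A10t (−0.34 to 0.20; 0.0023 with quantile normalization and 0.057 after length correction) and 0.24 in 1G12t (−0.029 to 0.52), with adjusted p of 0.447, 0.729 and 0.721 (limma).

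Set against Rictor, the corresponding subunit of mTORC2, Rptor spread less within 3 of the groups than alone. The ratios were 0.287, 0.288 and 0.295 in EV Tregs without IL-2 and 0.271, 0.276 and 0.281 with IL-2. For 1G12t they were 0.335, 0.312 and 0.328, and for 3A10t 0.215, 0.286 and 0.267. The 1G12t ratios lay above, and the EV+IL-2 and 3A10t ratios below, all those of EV Tregs without IL-2, the nearest by 0.286 against 0.287. Each of these had the smallest exact permutation p possible, 0.1, and an adjusted p of 0.25 over 30 tests.

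Tsc1 and Tsc2 encode hamartin and tuberin, the partners of the TSC complex, in which tuberin acts on RHEB and hamartin stabilizes it. Tsc1 was at 18.9, 25.4 and 32.6 scaled TPM in EV Tregs without IL-2 and at 22.6, 23.4 and 26.3 with IL-2. Its values were 22.6, 28.3 and 27.9 for 1G12t, and 27.5, 37.0 and 32.1 for 3A10t. The 3A10t group had the highest mean of Tsc1 but overlapped 1G12t and EV no IL-2, and the libraries of the latter ranged widely. For 3A10t the log2 fold change was 0.34 (−0.053 to 0.74, adjusted p = 0.245) against EV no IL-2 and 0.40 (0.0042 to 0.79, adjusted p = 0.131, limma) against EV+IL-2. The former was 0.148 without EV no IL-2 replicate 1 and 0.525 without EV no IL-2 replicate 3. With the replicate block the difference from EV+IL-2 passed, at the same fold change (adjusted p = 0.0464, limma).

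Tsc2 was at 26.2, 23.3 and 24.1 scaled TPM in EV Tregs without IL-2 and at 18.6, 18.9 and 22.4 with IL-2. Its values were 25.6, 22.9 and 28.5 for 1G12t, and 20.97, 17.8 and 14.0 for 3A10t. EV+IL-2 and 3A10t lay below every library of EV no IL-2 and of 1G12t, and overlapped each other. The log2 fold change of 3A10t was −0.47 (−0.78 to −0.16, adjusted p = 0.0903) against EV no IL-2, a fold of 0.72, and −0.53 (−0.84 to −0.22, adjusted p = 0.054, limma) against 1G12t. Without 3A10t replicate 1 both passed, at −0.60 (adjusted p = 0.0116) and −0.66 (adjusted p = 0.00743, limma). In the same fits 3469 and 4105 of all 15043 genes passed, beside 308 and 642 with all libraries. Over left-out libraries both differences varied, from −0.603 to −0.325 and from −0.661 to −0.383. In EV+IL-2 against EV no IL-2 the log2 fold change of Tsc2 was −0.29 (−0.60 to 0.022, adjusted p = 0.228, limma). Of the exonic bases of Tsc2, 7.2% (693 bases) overlap exons of Pkd1 on the opposite strand, a gene with a mean of 30.2 scaled TPM, and reads there cannot be assigned where strand was not used in counting.

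The ratio of Tsc1 to Tsc2 was 0.722, 1.09 and 1.35 in EV Tregs without IL-2 and 1.21, 1.24 and 1.176 with IL-2. For 1G12t it was 0.885, 1.24 and 0.978, and for 3A10t 1.31, 2.08 and 2.30. It was higher in all 3A10t libraries than in any EV+IL-2 or 1G12t library (exact permutation p = 0.1 for both, the smallest possible; adjusted p = 0.25), and 1 EV no IL-2 library lay above the lowest 3A10t library (exact permutation p = 0.2).

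In the 3A10t libraries, fold changes of all genes moved with transcript length, measured as the longest annotated transcript. Against EV no IL-2, 3A10t had a median log2 fold change of 0.192 over 4353 genes with transcripts under 1500 bases and of −0.129 over 4175 genes over 4000 bases. The Spearman correlation across 14815 genes, a description over genes that share libraries, was −0.33 for 3A10t and 0.0396 for 1G12t. Of the 9 genes, 7 had a longest transcript over 4000 bases, from 4921 for Pik3cd to 8917 for Pik3ca, and Pik3ip1 and Akt1 were at 2573 and 2690 bases. The log2 fold changes of Pik3cd, Tsc2 and Pik3ca given above were more negative than the median of genes of like length, which was −0.167 for the length class of Pik3cd, −0.0954 for that of Tsc2 and −0.0438 for that of Pik3ca. After the length trend was subtracted from each library, the log2 fold change in 3A10t was −0.32 for Pik3cd (adjusted p = 0.147), −0.33 for Tsc2 (adjusted p = 0.16) and −0.40 for Pik3ca (adjusted p = 0.266, limma). Tsc1, with a transcript of 7702 bases, stood at 0.43 after the correction (adjusted p = 0.166). The trend was also present in 3A10t against 1G12t (Spearman −0.35 across genes), where the corrected values were −0.305 for Pik3cd (adjusted p = 0.14), −0.318 for Tsc2 (adjusted p = 0.156) and −0.459 for Pik3ca (adjusted p = 0.204, limma). Against EV+IL-2, where the Spearman correlation was −0.253, the corrected value of Pik3cd was −0.265 (adjusted p = 0.122, limma).

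**Figure D3:**
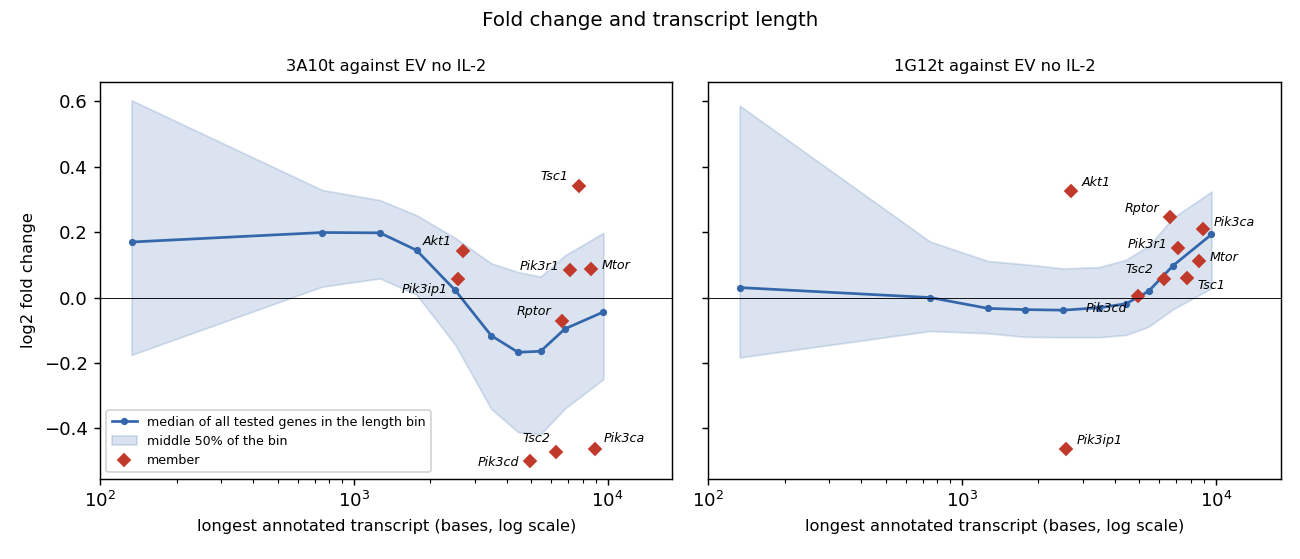
Log2 fold change (vertical axis) against the longest annotated transcript in bases (horizontal axis, log scale) in 3A10t and in 1G12t, each against EV no IL-2. A line joins medians of all tested genes in length classes, the band holds the middle 50% of each class, and diamonds are the 9 genes: Pik3cd, Tsc2 and Pik3ca lie below the band in 3A10t, and Tsc1 above it.

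The other genes of the pathway were 100 genes in 9 lists by role, of which 95 were tested. These lists were chosen with earlier results of these data known. In EV+IL-2 against EV no IL-2, 11 of the 95 rose and 9 fell at an adjusted p under 0.05, beside 8.17% and 5.13% of all genes. Of 7 genes that FOXO1 activates in T cells, 5 fell and none rose, with a median log2 fold change of −0.509 beside −0.0144 over all genes. Among them were Il7r, the IL-7 receptor, from 163 ± 13.6 to 60.6 ± 2.58 scaled TPM (−1.41 ± 0.16 SE, adjusted p = 0.000195), the lymph node homing receptor Ccr7 from 413 ± 29.2 to 256 ± 11.6 (−0.68 ± 0.11, adjusted p = 0.00159, limma), and, named after their values were seen, S1pr1 and Cdkn1b (−0.56 and −0.51). Of 14 genes known to be induced through mTORC1, 5 rose and none fell, with a median of 0.349. These included the transferrin receptor Tfrc, from 23.5 ± 0.85 to 45.9 ± 1.16 (0.94 ± 0.13, adjusted p = 0.000914), the serine synthesis enzyme Psat1 (0.81 ± 0.12, adjusted p = 0.00148) and the mitochondrial folate enzyme Mthfd2 (0.59 ± 0.11, adjusted p = 0.00449, limma). The glycolytic enzyme Pgk1 (0.36), named after its value was seen, was also among the 5.

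Nearer to the 9 genes, the catalytic subunit gene Pik3cg rose from 4.77 ± 0.84 to 8.52 ± 1.17 scaled TPM in EV+IL-2 (0.73 ± 0.13 SE, adjusted p = 0.00376), the only 1 of 6 other PI3K subunits and adaptors to pass. Phlpp1, a phosphatase that removes an activating phosphate from AKT, fell from 14.7 ± 0.53 to 7.22 ± 0.91 (−0.94 ± 0.17, adjusted p = 0.00384), alone among 6 phosphatases. None of 9 genes of the AKT family, its upstream kinase and substrates passed in limma, and 0 of these had an unadjusted p under 0.05. Sesn2, a leucine sensor that restrains mTORC1, rose from 17.9 ± 0.54 to 37.0 ± 3.52 (1.00 ± 0.16, adjusted p = 0.00196), and Lpin1, a lipid phosphatase under mTORC1 control, from 13.8 ± 1.70 to 23.1 ± 1.03 (0.71 ± 0.15, adjusted p = 0.0106, limma). Without EV no IL-2 replicate 2 the 20 calls became 13.

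**Figure D4:**
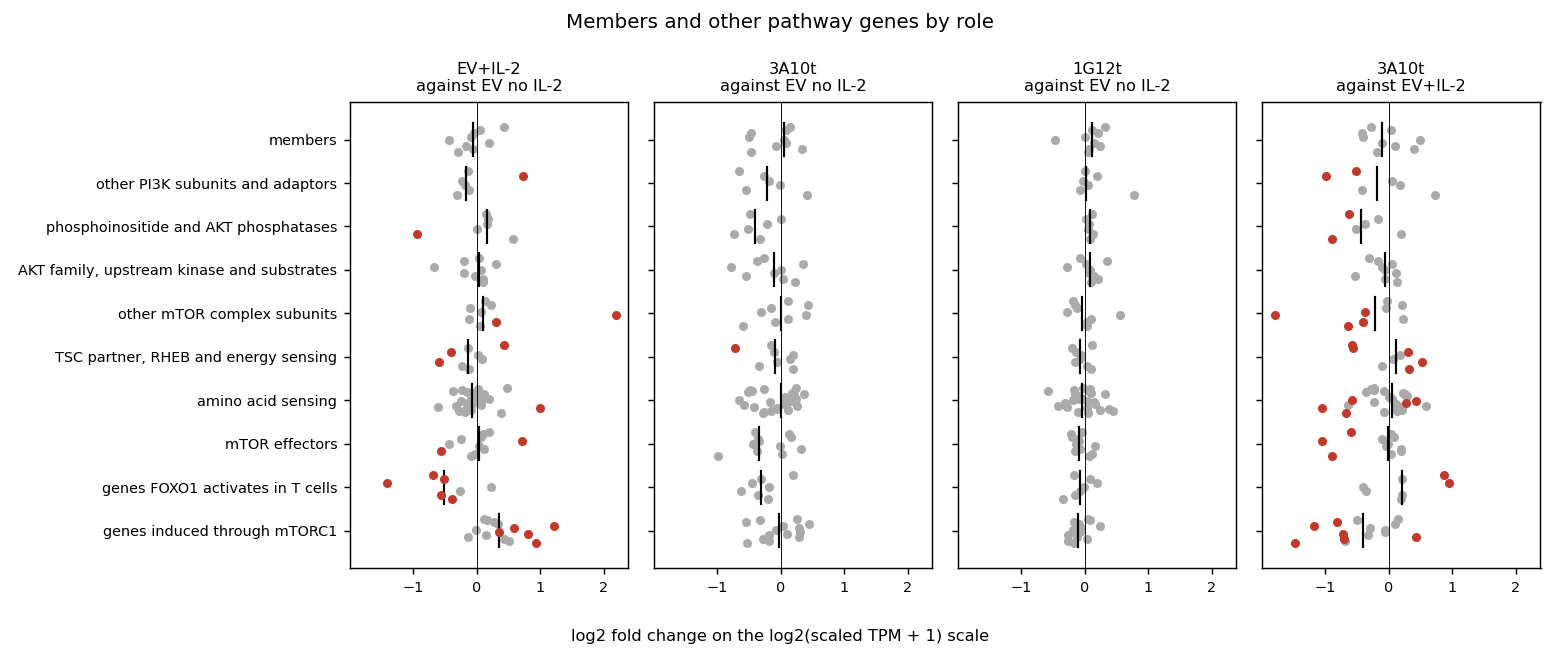
Log2 fold change (horizontal axis, log2(scaled TPM + 1) scale) of the 9 genes (members) and of 95 other pathway genes by role, in 4 comparisons, 1 point per gene, red where the adjusted p was under 0.05, with a bar at the median of each list. Red points gather below 0 for genes FOXO1 activates and above 0 for genes induced through mTORC1 in EV+IL-2, and there are none among the 9 genes.

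In 3A10t against EV no IL-2, 1 of the 95 was called, beside 2.05% of all genes: Prkaa1, the catalytic subunit of the energy sensor AMPK, was at 14.2 ± 2.86 against 23.8 ± 2.504 scaled TPM (−0.71 ± 0.13 SE, adjusted p = 0.0303, limma). With the replicate block the count was 2. Without 3A10t replicate 1 it was 31, without 1G12t replicate 3 it was 2, and it was 0 without any of 8 other libraries (EV no IL-2 replicates 2 and 3, EV+IL-2 replicates 1 to 3, 1G12t replicate 2 and 3A10t replicates 2 and 3). Without 3A10t replicate 1, 3469 of all 15043 genes were called, beside 308 with all libraries. In 3A10t, 33 of the 95 had an unadjusted p under 0.05, beside 26.0% of all genes (limma). Of the 7 genes FOXO1 activates, 6 were lower and 0 were called, with a median of −0.303 beside 0.0263 over all genes. Of the 14 genes induced through mTORC1, 7 were lower and 7 higher, with a median of −0.0185. For 1G12t, 0 of 95 were called in limma and 6 had an unadjusted p under 0.05, beside 7.04% of all genes.

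Between the tethers, 2 of the 95 were higher and 5 lower in 3A10t than in 1G12t, beside 1.3% and 2.96% of all genes. Among the lower genes were Ulk1, the kinase that starts autophagy (−1.06 ± 0.26 SE, adjusted p = 0.0477), Phlpp1 (−0.87 ± 0.17, adjusted p = 0.0322), Il7r (−0.65 ± 0.16, adjusted p = 0.0497) and Prkaa1 (−0.51 ± 0.13, adjusted p = 0.0494, limma). Higher were the glycolytic enzyme Ldha, at 1296 ± 209 against 884 ± 40.6 scaled TPM (0.54 ± 0.10, adjusted p = 0.0318), and Rraga, a GTPase that recruits mTORC1 to lysosomes (0.42 ± 0.086, adjusted p = 0.0351, limma). These 7 calls became 42 without 3A10t replicate 1 and 0 to 2 when any 1 of the other 11 libraries was left out, and were 11 with the replicate block. Of all 15043 genes, 4105 were called without 3A10t replicate 1 and 987 with the block, beside 642. This comparison carried the trend with transcript length (Spearman −0.35 across genes). After length correction the calls among the pathway genes were 3, beside 202 of 14815 genes. Length-corrected values of the genes named here are not given.

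Against EV+IL-2, 8 of the 95 were higher and 21 lower in 3A10t, beside 10.3% and 13.0% of all genes. Among the larger differences were those of Tfrc, at 16.0 ± 1.77 against 45.9 ± 1.16 scaled TPM (−1.47 ± 0.13 SE, adjusted p = 5.7e-05), Sesn2 (−1.06 ± 0.16, adjusted p = 0.00133), Lpin1 (−1.04 ± 0.15, adjusted p = 0.00102) and Pik3cg (−0.98 ± 0.13, adjusted p = 0.000545, limma). Ulk1 was lower by 0.90 and the sterol synthesis enzyme Hmgcs1 by 0.81. Higher than in EV+IL-2 were Il7r (0.95 ± 0.16, adjusted p = 0.0023) and Ccr7 (0.88 ± 0.11, adjusted p = 0.000334, limma). This comparison shares the EV+IL-2 libraries with the first. Set against EV no IL-2 instead, 3A10t had −0.46 for Il7r (adjusted p = 0.12) and 0.19 for Ccr7 (adjusted p = 0.268, limma). The 29 calls became 17 without EV+IL-2 replicate 1 or without EV+IL-2 replicate 3. The comparison of 3A10t with EV+IL-2 also carried the trend with transcript length (Spearman −0.253 across genes). Its median log2 fold change was 0.13 for genes under 1500 bases and −0.14 for genes over 4000. Length-corrected values of the pathway genes named here are not given.

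The genes whose profile over the 12 libraries was most like that of each of the 9 were ranked among 8320 genes whose TPM averaged 10 or more, by the root-mean-square difference of log2 values centred on EV no IL-2. For Pik3cd they were Prkx (0.0633), Pik3r5 (0.0735), which encodes a regulatory subunit of PI3Kγ, and Nfatc1 (0.0759), beside a largest deviation of Pik3cd itself of 0.772. For Pik3ip1 they were Adi1 (0.132), Ctsl (0.137) and Ighm (0.16), beside 1.21, which was the value of 1G12t replicate 3. For Akt1 they were Pabpc1 (0.104), Igsf8 (0.133) and Furin (0.138), and for Tsc2 Dennd4b (0.127), Snapc4 (0.127) and Arap1 (0.129). Mtor, which moved least, was nearest to Gemin2 (0.0637).

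On the GRCm38 build, the genes lie on several chromosomes. Pik3cd (chromosome 4, 149649168 to 149702571) and Mtor (chromosome 4, 148448611 to 148557683) share chromosome 4, and Pik3ip1 (3330401 to 3342971) and Rptor (119602905 to 119899576) share chromosome 11. Pik3ca lies on chromosome 3 (32397671 to 32468486), Pik3r1 on 13 (101680563 to 101768217), Akt1 on 12 (112653821 to 112674884), Tsc1 on 2 (28641228 to 28691167) and Tsc2 on 17 (24595816 to 24632630), all as protein-coding genes.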

How the data were processed

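RNA from 12 libraries of Tregs (4 groups, 3 replicates each) was reverse transcribed with oligo-dT primers and amplified before sequencing. Per the submitters' processing notes and methods, the authors used cutadapt 1.18, STAR 2.5.3 and RSEM 1.3.0, and tested with DESeq2 1.26. The values used here are the TPM the authors deposited, listed by gene symbol, which sum to the same total per library and hold no depth. Whether strand was used in counting is not given in the sources used here.

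TPM were divided by median-of-ratios factors from genes averaging 1 TPM or more. limma 3.58.1 (R 4.3.3, eBayes with a trend) was fitted to log2(scaled TPM + 1), pseudocount 1, with one mean per group over all 12 libraries and no replicate block, and p-values were adjusted by Benjamini-Hochberg over 15043 genes. Ratios within a library were compared with two-sided exact permutation tests in SciPy 1.17.1 (Python 3.11.15). Lengths, positions and overlaps came from GENCODE M21 on GRCm38, which held 96.8% of the symbols. The code was tested on simulated data.

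The alternatives were pseudocounts of 0.1 and 5, no filter or a stricter one (average TPM of 5), unscaled TPM, quantile normalization, a fit to the 6 libraries compared alone, the replicate block, no trend, arrayWeights (whose estimation stopped before it converged), a lowess length correction (span 0.3) with and without the block, and each library left out. The labels give the shared sort and culture behind a replicate number. Over 18 pairs of libraries with the same number, deviations from group means correlated by 0.041 on average (−0.105 to 0.155, 3 of them over 0.1), and over 36 pairs of unlike number by −0.02. Blocked values are printed only where a call or, by over 1.5 times, a count changed.

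The 9 genes, the other pathway lists and the tests were chosen with earlier results of these data known. Other pathway genes were named where the adjusted p was under 0.05, the mean TPM at least 5 and the groups did not overlap, up to 10 per comparison by size, and the 3 most alike genes were taken for each of the 9. No sequence is shown, since promoters were to be shown only for a gene past the threshold in EV+IL-2. Some genes counted in the pathway lists are not reported by name here.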

Additional observations from a re-analysis of the deposited data

Results flagged for a closer look

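Pik3ip1 and Rptor, neither of which passed the test, lay on opposite sides in different groups when each library was set against the EV no IL-2 library with its replicate number. Pik3ip1 was lower in all 3 EV+IL-2 libraries (log2 fold change −0.44) and in all 3 1G12t libraries (−0.463), and higher in all 3 3A10t libraries (0.0568). Without 1G12t replicate 3 the 1G12t value was −0.0897. With TPM as deposited, 3A10t replicates 2 and 3 (124.2 and 138.7) lay below EV no IL-2 replicates 2 and 3 (141.0 and 150.5). The direct comparisons gave an adjusted p of 0.157 for 3A10t against EV+IL-2 and of 0.173 for 3A10t against 1G12t (limma), where the log2 fold change was 0.52 and, without 1G12t replicate 3, 0.146. Rptor was lower in all 3 EV+IL-2 libraries (−0.173) and higher in all 3 1G12t libraries (0.245), a difference that was not tested between those groups.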

How the results depend on the processing

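Of the fold changes of the 9 genes over all alternatives, 1006 kept their direction and their side of the threshold, 39 came to pass it and 35 changed sign. Members called were 0 of 9 in each comparison. In EV+IL-2 against EV no IL-2 they were 2 with only the 6 libraries compared, 1 with the replicate block, alone and with length correction, and 3 with arrayWeights. In 3A10t they were 4 with arrayWeights against EV no IL-2. Against 1G12t they were 2 with a mean TPM of at least 5, 2 with TPM as deposited and 4 with arrayWeights, and against EV+IL-2 1 with only 6 libraries, 1 with the block, alone and with length correction, and 7 with arrayWeights. Of all 15043 genes, arrayWeights called 4168, 6774, 6499 and 9036 in these 4 comparisons, beside 2001, 308, 642 and 3513 without weights. With only 6 libraries, 3209 were called in EV+IL-2 against EV no IL-2 and 1889 in 3A10t against EV+IL-2. Against 1G12t, 1396 were called with TPM as deposited, and 1172 of 10042 with a mean TPM of at least 5. Leaving out each library gave 0 to 1, 0 to 2, 0 to 4 and 0 to 1 members called in these 4 comparisons, and 0 in 1G12t against EV no IL-2. With arrayWeights, 3A10t replicate 3 had a weight of 22.95, and the part of that weight in these counts was not tested.

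Without 3A10t replicate 1, calls over all 15043 genes were 3469, 4105 and 5145 in 3A10t against EV no IL-2, 1G12t and EV+IL-2. Calls among the 95 other pathway genes ranged from 13 to 26, 0 to 31, 0 to 42 and 17 to 36 over left-out libraries. In 3A10t against EV no IL-2 the 1 call became 0 without a filter on low TPM or with only 6 libraries, 3 with a mean TPM of at least 5, 7 with TPM as deposited, 2 with the replicate block and 53 with arrayWeights. Against 1G12t the 7 became 11 and 4 with pseudocounts of 0.1 and 5, 0 without a filter or with only 6 libraries, 12 with a mean TPM of at least 5, 16 with TPM as deposited, 11 with the replicate block, 4 without the trend, 54 with arrayWeights and 3 with length correction, with or without the block. Against EV+IL-2 the 29 became 15 with only 6 libraries and 63 with arrayWeights. With TPM as deposited, the median over all genes tested moved from 0.0263 to −0.0907 in 3A10t against EV no IL-2 and from −0.0167 to −0.179 against 1G12t. The causes were not tested.

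Signs changed for fold changes near 0. In 3A10t against EV no IL-2, TPM as deposited gave −0.062 for Pik3r1, −0.092 for Pik3ip1 and −0.045 for Mtor, quantile normalization −0.00864 for Pik3ip1 and 0.0023 for Rptor, and length correction 0.057 for Rptor, and in 3A10t against EV+IL-2 TPM as deposited gave −0.049 for Mtor. For 1G12t against EV no IL-2, length correction gave −0.016 for Pik3cd, −0.033 for Mtor, −0.061 for Tsc1 and −0.016 for Tsc2, and arrayWeights −0.024 for Pik3cd. In 3A10t against 1G12t, length correction gave 0.15 for Pik3r1 and 0.19 for Mtor, and quantile normalization 0.13 for Mtor. The length values were the same with the replicate block. Over left-out libraries, the ranges that crossed 0 were, in EV+IL-2 against EV no IL-2, −0.20 to 0.15 for Pik3ca, −0.01 to 0.11 for Mtor and −0.25 to 0.13 for Tsc1. In 3A10t against EV no IL-2 it was −0.17 to 0.042 for Rptor. For 1G12t they were −0.061 to 0.074 for Pik3cd, −0.055 to 0.29 for Pik3r1, −0.13 to 0.24 for Tsc1 and −0.019 to 0.14 for Tsc2. In 3A10t they were −0.20 to 0.14 for Pik3r1 and −0.062 to 0.048 for Mtor against 1G12t, and −0.0064 to 0.065 for Mtor against EV+IL-2.

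Among the log2 ratios, 220 values kept their sign and 20 changed it. Pik3cd to Pik3ca ranged over left-out libraries from −0.25 to 0.14 in EV+IL-2 and −0.16 to 0.19 in 3A10t against EV no IL-2, and −0.11 to 0.27 in 3A10t against EV+IL-2, and a pseudocount of 1 gave −0.058 and −0.0069 in the latter 2. Akt1 to Akt2 ranged from −0.12 to 0.12 in 3A10t against 1G12t and −0.11 to 0.12 against EV+IL-2, Rptor to Rictor from −0.20 to 0.0015 in 3A10t against EV+IL-2, Tsc1 to Tsc2 from −0.00899 to 0.44 in EV+IL-2 and −0.25 to 0.21 in 1G12t against EV no IL-2, and Pik3r1 to the catalytic genes from −0.00896 to 0.22 in 1G12t against EV no IL-2. Among the 9 genes, the replicate block changed no call other than those of Akt1 and Tsc1. TPM hold no depth, so counting error could not be given.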
